A study of Mus musculus with 6 samples.

Results

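The 46 genes described here encode enzymes that remove reactive oxygen species, that make, use and recycle glutathione, and that supply the reducing power for both, together with NRF2, the transcription factor that drives many of them, and its inhibitor KEAP1. They were chosen by name and function, not by a threshold on their values, though with earlier results of these data known, and each had 1 row among the 22322 genes of the deposited table. RNA-Seq was performed on DP thymocytes, the CD4+CD8+ precursors that make up most of the thymus, sorted by flow cytometry in 3 libraries per genotype. Control libraries came from Paxbp1 fl/fl mice without Cre (labelled WT), and cKO libraries from Paxbp1 fl/fl mice that carry Lck-cre. Both groups thus hold the floxed Paxbp1 alleles, and Cre, driven by the Lck promoter in the T cell lineage from its early stages on, is present in the cKO mice only, so that the presence of Cre and the loss of Paxbp1 cannot be told apart. The mice were littermates on a C57BL/6 background, of both sexes, aged 4 to 7 weeks and untreated. The sources used here do not say whether each library came from its own mouse, so that p-values measure the spread between libraries, which may be in part technical.

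The libraries held between 18963775 and 26252248 counts, and 1 count was worth 0.0381 to 0.0527 CPM, the count scaled to the library's total. The targeted gene, Paxbp1, had 774, 318 and 400 counts in the control libraries and 851, 905 and 1075 counts in the cKO-labelled libraries, with a log2 fold change of 0.92 ± 0.33 (standard error), cKO over control, and an adjusted p of 0.0977 by edgeR's quasi-likelihood test. These counts cover the whole gene, not the deleted part alone, and so do not check the deletion, and the libraries are called cKO-labelled throughout. The study itself reported the deletion in sorted thymocytes, DP cells among them, by qPCR, reverse transcription PCR and western blot. The first principal component of all tested genes (38.9% of the variance) separated the groups with no library on the other side. All 14 DP markers, among them Cd4, Cd8a and Rag1, passed the filter on low counts. Their summed level was 13146 to 15189 CPM in the control libraries and 10013 to 11693 CPM in the cKO-labelled libraries, and 3 of the 14 fell (Rag1, Cd3e and Cd8b1). A negative log2 fold change was found for 13 of the 14 and a positive one for 1 (Ets2). Their median was -0.32, beside -0.0017 over all tested genes. Of 20 macrophage markers 11 were tested and 4 rose (C1qb, C1qc, Adgre1 and Cd68), with a summed level of 19.2 to 47.9 CPM in the control libraries and 62.4 to 80.4 CPM in the cKO-labelled libraries. Mertk, Vsig4 and Marco were at 0 in all 6 libraries, and Adgre1 was at 0 in the 3 control libraries. Of 8 tested markers of the earlier DN and ISP stages 3 rose (Il2ra, Hes1 and Dtx1). By direction alone, 5 of the 8 had a positive and 3 a negative log2 fold change. The 3 negative were Kit (-0.93), Notch3 (-0.76) and Cd44 (-0.0091), and none of them passed. The summed level of 11 erythroid markers was 46.5 to 154 CPM against 9.95 to 55.9 CPM, and none of the 7 tested passed. Of 4 tested markers of dendritic cells, 1 of neutrophils and 4 of thymic epithelium none passed, and of 3 of B cells 1 fell (Cd79b). Over all 11488 tested genes, 4.47% rose and 5.89% fell at the same threshold, an edgeR adjusted p below 0.05.

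Thymocytes meet superoxide and hydrogen peroxide mainly from their mitochondria. Superoxide dismutases turn superoxide into peroxide, which catalase, glutathione peroxidases and peroxiredoxins then reduce. Glutathione, a tripeptide of glutamate, cysteine and glycine, and the small protein thioredoxin give the electrons, and glutathione reductase and thioredoxin reductases restore both with NADPH, much of it from the pentose phosphate pathway. Glutathione transferases couple glutathione to reactive compounds. Under oxidative stress KEAP1 no longer marks NRF2 for degradation, and NRF2 binds antioxidant response elements (ARE) next to many genes of this group, heme oxygenase, NAD(P)H quinone oxidoreductase and both subunits of glutamate-cysteine ligase among them.

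The ARE core TGACNNNGC was looked for on both strands (as GCNNNGTCA on the other) in the window from 250 bases before to 50 bases after the start of each gene in RefSeq (GRCm38.p6), where 39 of the 46 genes had an entry. Of these, 10 held the core (25.6%), against 14.0% of 27025 genes. A gene with several starts had several windows and was counted if any of them held the core. By window, 10 of the 54 windows of the 39 genes held it, against 12.4% of 32851 windows of all genes. Whether these shares differ was not tested. A match is a run of letters, not a shown binding site. To show what the core looks like beside genes known as NRF2 targets, 4 of the 10 are printed with 25 bases on each side, in the direction of the gene and with the core in capitals. Gclm is at chr3:122245398-122245456 (plus strand), Prdx1 at chr4:116685441-116685499 (plus strand), Txnrd1 at chr10:82859089-82859147 (plus strand) and G6pdx at chrX:74428904-74428962 (minus strand). The stretches of Gclm and Prdx1 lie before the GENCODE model of the gene. Those of Txnrd1 (gene at chr10:82833951-82897712) and G6pdx (gene at chrX:74409483-74429194) lie inside it, with the core before a RefSeq start.
Gclm: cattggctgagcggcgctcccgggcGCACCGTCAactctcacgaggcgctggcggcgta
Prdx1: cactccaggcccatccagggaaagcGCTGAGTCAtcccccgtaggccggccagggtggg
Txnrd1: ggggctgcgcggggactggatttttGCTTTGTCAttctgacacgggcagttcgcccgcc
G6pdx: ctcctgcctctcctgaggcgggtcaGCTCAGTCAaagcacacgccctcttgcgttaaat

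None of these 4 genes passed the test between genotypes. The other genes with the core were Nfe2l2, Sod1, Srxn1, Pgd, Gstm5 and Gstm7. Of the 3 genes that fell, Mgst2 and Gstm7 had an entry, and the 120 bases before their starts are shown to set beside the 4 above, Mgst2 from chr3:51661059-51661178 (plus strand) and Gstm7 from chr3:107931818-107931937 (minus strand). Neither stretch holds the core. The core of Gstm7 lies at chr3:107931710-107931768 with its flanks, inside the annotated gene and before an alternative start, and the RefSeq start of Mgst2 lies inside the longer GENCODE model of the gene.
Mgst2: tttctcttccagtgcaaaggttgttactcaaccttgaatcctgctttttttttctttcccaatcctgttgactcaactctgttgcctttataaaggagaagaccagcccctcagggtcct
Gstm7: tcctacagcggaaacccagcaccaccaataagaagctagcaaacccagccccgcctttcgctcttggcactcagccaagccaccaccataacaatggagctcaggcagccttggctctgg

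Most antioxidant and glutathione genes did not pass the test between genotypes, and the 3 that did were all glutathione transferases and all lower in the cKO-labelled libraries. Of the 46 genes, 41 passed the filter on low counts. None of the 41 rose and 3 fell at an adjusted p below 0.05: Mgst2, Gstt2 and Gstm7 (7.32% of the 41). Over all 11488 tested genes, 4.47% rose and 5.89% fell, so that the share of the 41 that fell was near that of the whole table. With an absolute log2 fold change above 1 as well, Mgst2 and Gstm7 fell and none rose, against 1.23% and 1.53% of all tested genes. At an unadjusted p below 0.05, 3 of the 41 were higher (Gsr, Sod1 and Sod2) and 7 lower, and 13.3% and 14.6% of all tested genes were higher and lower. DESeq2 called 1 gene higher (Gsr) and limma-voom 0.

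Of the 41 genes 18 had a positive and 23 a negative log2 fold change, with a median of -0.083, while the median of all tested genes was -0.0017. On the log2 scale, each library's median deviation over the 41 genes had an SD of 0.139 within groups. This is a spread of single libraries, not the error of the median fold change. That median was 0.015 without control library 2, 0.013 without control library 3 and -0.19 without control library 1, so that it had no stable direction. For 34 of the 41 the log2 fold change was smaller in size than 0.5. The 95% interval lay within a 2-fold change either way for 30 of 41 genes (73.2%), against 65.7% of all tested genes. All 3 control values lay above all 3 cKO-labelled values for 6 genes (14.6%: Mgst2, Gstt2, Gstm7, Prdx5, Txn2 and Glrx2), and below them for 4 genes (9.76%: Gsr, Prdx1, Gstt3 and Pgd), where 17.3% and 15.7% of all tested genes were so ordered. Both shares were below those of the whole table. Summed over the 46 genes, the level was 3061, 3777 and 3903 CPM in control libraries 1, 2 and 3 and 3680, 3528 and 3612 CPM in the cKO-labelled libraries 1, 2 and 3. Control library 1 was the lowest of the 6 libraries for 16 of the 41 genes (39.0%), against 22.4% of all tested genes, and without it 6 of the genes passed as lower (14.6%), when the share of all tested genes that passed as lower also grew, to 8.68%.

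**Figure D1:**
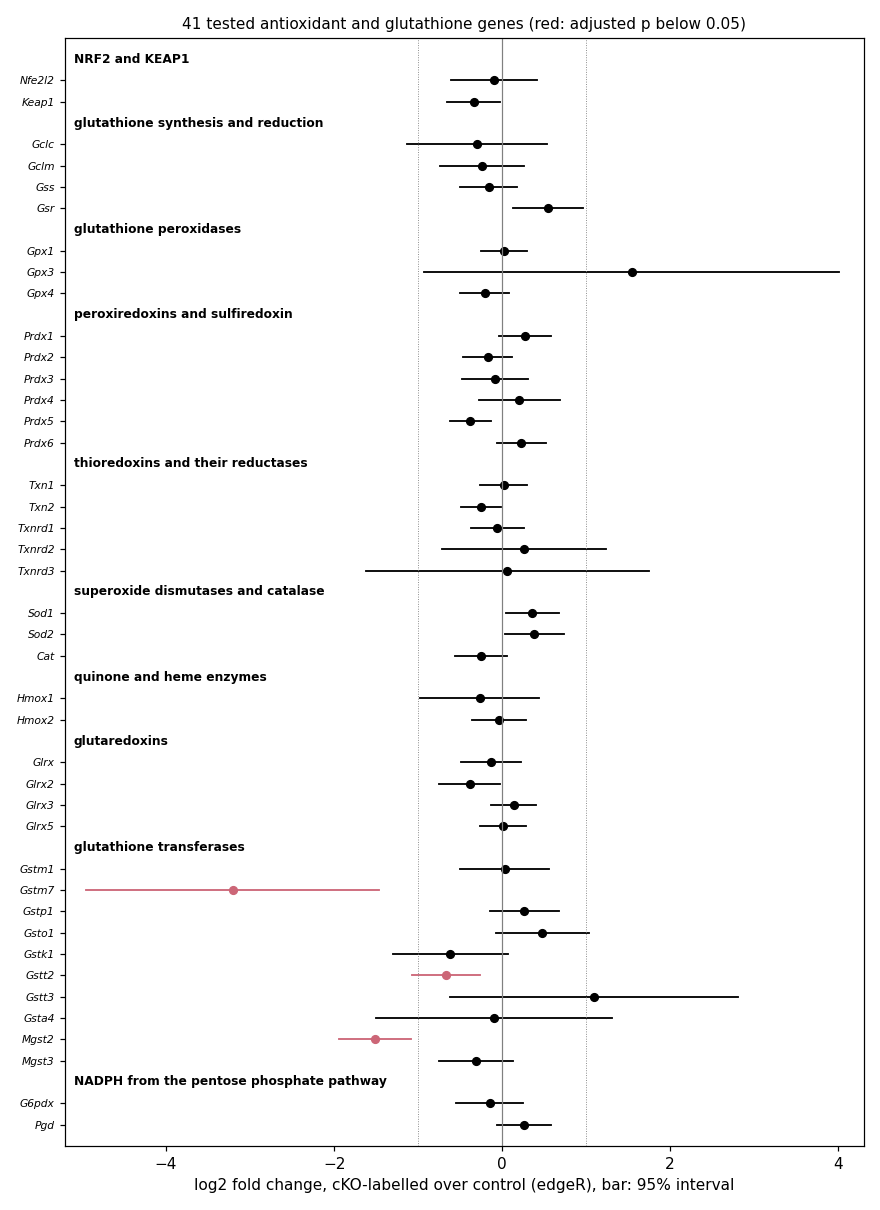
The log2 fold change of each of the 41 tested genes, cKO-labelled over control, with its 95% interval from edgeR, grouped by role; red marks an adjusted p below 0.05 and dotted lines a 2-fold change. Mgst2, Gstt2 and Gstm7 are the genes in red, and the intervals of 30 genes stay between the dotted lines.

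Among the glutathione transferases, 3 of 10 tested genes fell and none rose, beside 5.89% and 4.47% of all tested genes. By direction alone, 4 of the 10 had a positive and 6 a negative log2 fold change. Of 7 tested genes in a separate list of other glutathione peroxidases and transferases, none passed. Whether the share of transferases that fell differs from that of all tested genes was not tested. Mgst2 (ENSMUSG00000074604, chr3:51660360-51682677, plus strand) encodes a microsomal transferase of the membrane-bound family that can also make leukotriene C4. It had 47.4, 74.2 and 49.9 CPM in the control libraries and 20.9, 18.7 and 20.5 CPM in the cKO-labelled libraries (libraries in the order 1, 2 and 3 here and throughout). The highest cKO-labelled value was under the lowest control value by more than 2-fold, and the means were 57.2 ± 14.8 CPM and 20.03 ± 1.18 CPM (SD, n = 3). This gave a log2 fold change of -1.51 ± 0.19 (standard error here and throughout), with an edgeR adjusted p of 0.00408, and it passed without each library in turn and under every other setting tried, with adjusted p from 3.3e-10 to 0.0371. A predicted gene on the same strand, Gm37261, overlaps 1101 nt of Mgst2, and reads there cannot be assigned to either with certainty. In such bulk samples fewer cells of a type and less RNA per cell cannot be told apart, and the part of the DP, earlier stage and macrophage markers, some of which differed between the genotypes as given above, in this and the following values was not tested.

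Gstt2 (ENSMUSG00000033318, chr10:75831114-75837424, minus strand) encodes a soluble transferase of the theta class. It had 32.9, 35.6 and 30.6 CPM in the control libraries and 25.6, 18.6 and 18.1 CPM in the cKO-labelled libraries. The groups did not overlap, and library 1 was the highest of the cKO-labelled libraries. The means were 33.0 ± 2.49 CPM and 20.8 ± 4.15 CPM (SD, n = 3) and the log2 fold change -0.67 ± 0.18, with an edgeR adjusted p of 0.0452. The call was lost without control library 2 (adjusted p = 0.144) or 3 (0.0769), without cKO-labelled library 2 (0.122) or 3 (0.173), and with total counts as the only scaling (0.0510).

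Gstm7 (ENSMUSG00000004035, chr3:107926334-107931817, minus strand), a soluble transferase of the mu class, had few reads, with 35, 53 and 168 counts in the control libraries and 3, 5 and 17 counts in the cKO-labelled libraries. This is 1.82, 2.72 and 6.52 CPM in the control libraries and 0.137, 0.260 and 0.785 CPM in the cKO-labelled libraries. The groups did not overlap, the control libraries spread more than 3-fold among themselves, and the values of cKO-labelled libraries 1 and 2 rest on 3 and 5 counts. On the log2 scale the difference was -3.21 ± 0.79, with a 95% interval of -4.95 to -1.47 and an edgeR adjusted p of 0.0308. It passed without control library 1, and missed the threshold without any other single library (adjusted p from 0.0564 without cKO-labelled library 3 to 0.136 without control library 3) and with limma-voom (0.0522). Genes of the mu class resemble each other in sequence, and reads could have been shared among them.

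The other transferases did not pass. Gstp1, of the pi class and with the highest CPM among the transferases, had 74.6, 122 and 129 CPM in the control libraries and 128, 134 and 129 CPM in the cKO-labelled libraries, where control library 1 stood below the other five. Its log2 fold change was 0.27 ± 0.18 (adjusted p = 0.386). Gsto1, of the omega class, ranged from 11.3 to 18.9 CPM in the control libraries and from 16.2 to 25.6 CPM in the cKO-labelled libraries, with 0.48 ± 0.25 (adjusted p = 0.246). Gstk1, the kappa-class transferase of mitochondria and peroxisomes, ranged from 7.57 to 11.2 CPM in the control libraries and from 4.17 to 7.80 CPM in the cKO-labelled libraries, with -0.62 ± 0.31 (adjusted p = 0.223). The intervals of both reach past a 2-fold change, -0.077 to 1.03 for Gsto1 and -1.30 to 0.065 for Gstk1. Gstm1, a second mu-class gene, ranged from 12.8 to 21.6 CPM in the control libraries and from 14.8 to 21.2 CPM in the cKO-labelled libraries (log2 fold change 0.028 ± 0.24, adjusted p = 0.958). Mgst3, a microsomal relative of Mgst2, ranged from 21.1 to 30.4 CPM in the control libraries and from 18.3 to 24.3 CPM in the cKO-labelled libraries (log2 fold change -0.31 ± 0.20, adjusted p = 0.339), and its libraries overlapped between the groups where those of Mgst2 did not. Gsta4, which acts on aldehydes of lipid peroxidation, and Gstt3, of the theta class, were low, at most 3.79 and 1.25 CPM, with log2 fold changes of -0.10 ± 0.63 (adjusted p = 0.945) and 1.09 ± 0.77 (adjusted p = 0.398). Gm20441, on the same strand, overlaps 6840 nt of Gstt3, and reads there cannot be assigned to either with certainty. Gstm5 had 2, 0 and 8 counts in the control libraries and 0, 0 and 6 counts in the cKO-labelled libraries and was not tested.

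NRF2 itself, encoded by Nfe2l2, was measured at 35.1, 55.8 and 36.0 CPM in the control libraries and 45.0, 28.7 and 45.1 CPM in the cKO-labelled libraries. The groups overlapped and each had 1 library apart from the other two, control library 2 above and cKO-labelled library 2 below. Its log2 fold change was -0.093 ± 0.23, with an interval of -0.60 to 0.42 and an edgeR adjusted p of 0.840. Keap1, the adaptor that presents NRF2 for ubiquitination, had 70.2, 90.7 and 87.6 CPM in the control libraries and 64.3, 72.5 and 59.7 CPM in the cKO-labelled libraries. Its log2 fold change was -0.34 ± 0.14 (adjusted p = 0.156), and only control library 1 reached into the cKO-labelled range. Without that library the adjusted p was 0.0351. NRF2 is regulated largely at the protein level, which was not measured in these libraries.

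Heme oxygenase 1, the inducible enzyme that breaks heme down and a widely used sign of NRF2 activity, is encoded by Hmox1. It was low, with 6.07, 6.63 and 10.3 CPM in the control libraries and 5.07, 5.94 and 8.12 CPM in the cKO-labelled libraries, and the groups overlapped. This gave a log2 fold change of -0.27 ± 0.32 (adjusted p = 0.637) with an interval of -0.97 to 0.44. Macrophages of the spleen and liver express Hmox1 strongly, and the macrophage markers given above summed to 19.2 to 47.9 CPM in the control libraries and 62.4 to 80.4 CPM in the cKO-labelled libraries. Hmox2, the constitutive isoform, ranged from 117 to 169 CPM in the control libraries and from 135 to 148 CPM in the cKO-labelled libraries (log2 fold change -0.042 ± 0.14, adjusted p = 0.888). Nqo1, the quinone reductase often used with Hmox1, had only 3, 2 and 2 counts in the control libraries and 9, 7 and 17 counts in the cKO-labelled libraries and did not pass the filter. The Nqo1 groups did not overlap, but the highest value was 0.785 CPM. Srxn1, sulfiredoxin, which repairs overoxidised peroxiredoxins, had no count in any library.

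Glutathione synthesis starts with glutamate-cysteine ligase, whose catalytic subunit is encoded by Gclc and whose modifier subunit by Gclm. Gclc had 12.3, 13.5 and 12.2 CPM in the control libraries and 12.2, 14.4 and 4.25 CPM in the cKO-labelled libraries, so that 5 libraries were alike and cKO-labelled library 3 was lower than the rest. On the log2 scale the difference was -0.30 ± 0.38 (adjusted p = 0.655), and it was 0.070 without that library. Gclm had 19.5, 23.5 and 26.4 CPM in the control libraries and 21.4, 14.0 and 23.4 CPM in the cKO-labelled libraries, with overlapping groups and a log2 fold change of -0.24 ± 0.22 (adjusted p = 0.532). Gss, glutathione synthetase, the second enzyme, ranged from 31.4 to 34.8 CPM in the control libraries and from 26.9 to 32.9 CPM in the cKO-labelled libraries (log2 fold change -0.16 ± 0.15, adjusted p = 0.533). Gss and Acss2 overlap on opposite strands over 22544 nt.

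Gsr encodes glutathione reductase, which returns oxidised glutathione to its reduced form. It had 70.4, 90.6 and 128 CPM in the control libraries and 138, 145 and 138 CPM in the cKO-labelled libraries. The cKO-labelled libraries were close together and all above the control libraries, which were spread from 70.4 to 128 CPM. The means were 96.3 ± 29.1 CPM and 140.3 ± 4.09 CPM (SD, n = 3). The log2 fold change of 0.54 ± 0.19 did not pass (edgeR adjusted p = 0.0918). It passed with DESeq2 (adjusted p = 0.0324) and without control library 3 (0.0224).

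None of the 3 glutathione peroxidases tested passed. Gpx1, the abundant cytosolic form, had 148, 182 and 188 CPM in the control libraries and 165, 186 and 174 CPM in the cKO-labelled libraries. The groups overlapped, and the log2 fold change was 0.021 ± 0.12 (adjusted p = 0.939) with an interval of -0.26 to 0.30. Gpx4, which reduces lipid hydroperoxides in membranes and guards against ferroptosis, had 175, 222 and 236 CPM in the control libraries and 178, 186 and 183 CPM in the cKO-labelled libraries. Control library 1 lay below the cKO-labelled libraries and control libraries 2 and 3 above them. This gave a log2 fold change of -0.21 ± 0.13 (adjusted p = 0.326), and the adjusted p was 0.0364 without control library 1. Gpx3, the secreted form of plasma, had at most 1.42 CPM, and its interval of -0.93 to 4.01 is too wide to tell a rise from a fall. Gpx7, a form of the endoplasmic reticulum, had 10, 4 and 5 counts in the control libraries and 9, 1 and 22 counts in the cKO-labelled libraries and was not tested.

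**Figure D2:**
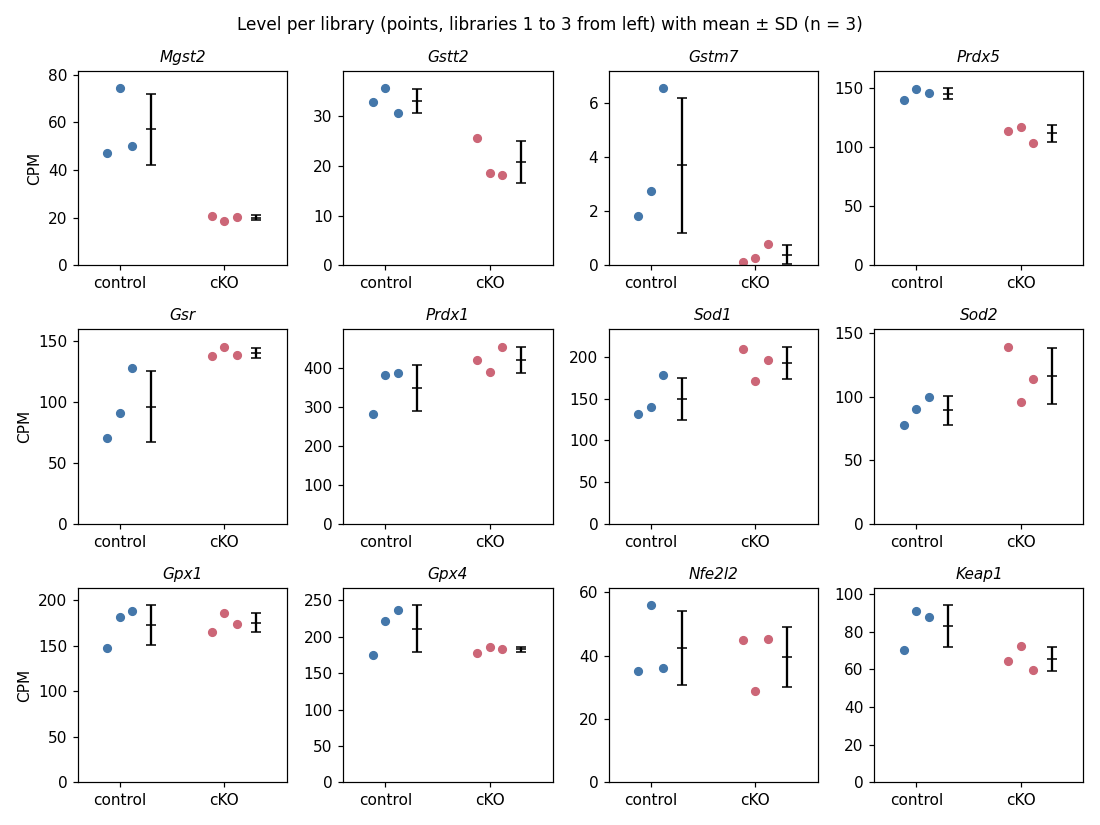
Levels in CPM of 12 genes in each library (blue, control; red, cKO-labelled), with the mean and SD of each group as bars (n = 3); every axis starts at 0. The groups do not overlap for Mgst2, Gstt2, Gstm7, Prdx5, Gsr and Prdx1, and they overlap for the other six.

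The peroxiredoxins, which reduce peroxide with electrons from thioredoxin, differed in direction among themselves, and none of the 6 tested passed. Prdx1, cytosolic and the most abundant of them, had 281, 381 and 386 CPM in the control libraries and 419, 388 and 453 CPM in the cKO-labelled libraries. The cKO-labelled libraries were all above the control libraries, the nearest pair at 386 and 388 CPM, and the log2 fold change was 0.27 ± 0.14 (adjusted p = 0.244). Prdx5, found in mitochondria, peroxisomes and cytosol, had 140.4, 149 and 146 CPM in the control libraries and 114, 118 and 104 CPM in the cKO-labelled libraries. Its libraries did not overlap between the groups, with means of 145 ± 4.51 CPM and 112 ± 7.27 CPM (SD, n = 3). On the log2 scale the difference was -0.38 ± 0.11, with an edgeR adjusted p of 0.0543, just above the threshold. It passed with DESeq2 (adjusted p = 0.0268), with limma-voom (0.0480) and without control library 1 (0.0256). Prdx5 and Trmt112 overlap on opposite strands by 409 nt.

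Prdx2, the cytosolic relative of Prdx1, ranged from 192 to 264 CPM in the control libraries and from 199 to 211 CPM in the cKO-labelled libraries, with a log2 fold change of -0.17 ± 0.13 (adjusted p = 0.428). Prdx6, which has both peroxidase and phospholipase activity, ranged from 248 to 325 CPM in the control libraries and from 293 to 344 CPM in the cKO-labelled libraries (log2 fold change 0.23 ± 0.13, adjusted p = 0.293). The mitochondrial Prdx3 ranged from 48.4 to 67.4 CPM in the control libraries and from 45.5 to 65.0 CPM in the cKO-labelled libraries (log2 fold change -0.083 ± 0.18, adjusted p = 0.804). Prdx4, of the secretory pathway, ranged from 20.9 to 37.4 CPM in the control libraries and from 30.1 to 37.9 CPM in the cKO-labelled libraries (log2 fold change 0.20 ± 0.22, adjusted p = 0.594). In each of these 4 the groups overlapped.

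None of the 5 thioredoxins and thioredoxin reductases passed. Txn1, the cytosolic thioredoxin, had 236, 299 and 311 CPM in the control libraries and 286, 289 and 283 CPM in the cKO-labelled libraries. The 3 cKO-labelled values lay between the lowest and the middle control value, and the log2 fold change was 0.018 ± 0.12 (adjusted p = 0.949) with an interval of -0.26 to 0.29. Txnrd1, the cytosolic reductase and an NRF2 target, had 109, 151 and 151 CPM in the control libraries and 132, 130.4 and 133 CPM in the cKO-labelled libraries, so that again the cKO-labelled libraries lay above control library 1 and below the other controls. Its log2 fold change was -0.056 ± 0.14 (adjusted p = 0.840). Txn2, the mitochondrial thioredoxin, ranged from 145 to 164 CPM in the control libraries and from 126 to 135 CPM in the cKO-labelled libraries, without overlap, and had a log2 fold change of -0.25 ± 0.11 (adjusted p = 0.162). Txnrd2, the mitochondrial reductase, ranged from 2.44 to 5.20 CPM in the control libraries and from 2.91 to 7.26 CPM in the cKO-labelled libraries (log2 fold change 0.25 ± 0.44, adjusted p = 0.757), and Txnrd3, a reductase known from testis, ranged from 0.411 to 1.55 CPM in the control libraries and from 0.462 to 1.64 CPM in the cKO-labelled libraries (log2 fold change 0.061 ± 0.76, adjusted p = 0.973). Their 95% intervals, -0.72 to 1.23 and -1.62 to 1.74, both hold a 2-fold rise.

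The superoxide dismutases Sod1 and Sod2 were both higher on average in the cKO-labelled libraries, and neither passed. Sod1, the copper and zinc enzyme of the cytosol, had 131, 140.2 and 178 CPM in the control libraries and 209, 171 and 197 CPM in the cKO-labelled libraries. Only the control library 3 value was within the cKO-labelled range, and the log2 fold change was 0.36 ± 0.14 (adjusted p = 0.132). Sod2, the manganese enzyme of mitochondria, had 77.5, 90.1 and 99.9 CPM in the control libraries and 139, 95.7 and 114 CPM in the cKO-labelled libraries. Control library 3 and cKO-labelled library 2 overlapped, and the log2 fold change was 0.38 ± 0.16 (adjusted p = 0.152). Sod3, the secreted enzyme, had no count in any library. Catalase, which splits peroxide in peroxisomes, had 168, 205 and 184 CPM in the control libraries and 135, 182 and 149.9 CPM in the cKO-labelled libraries. Of its cKO-labelled values 2 were under all the controls, and the log2 fold change was -0.25 ± 0.14 (adjusted p = 0.267).

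Glutaredoxins use glutathione to reduce protein disulfides, and some carry iron-sulfur clusters. Glrx2, the mitochondrial form, ranged from 26.9 to 31.5 CPM in the control libraries and from 21.0 to 24.9 CPM in the cKO-labelled libraries, without overlap, with a log2 fold change of -0.39 ± 0.16 (adjusted p = 0.156). Glrx, the cytosolic form, ranged from 24.3 to 26.1 CPM in the control libraries and from 21.2 to 25.5 CPM in the cKO-labelled libraries (log2 fold change -0.13 ± 0.16, adjusted p = 0.642). Of the monothiol forms that serve iron-sulfur clusters, Glrx3 ranged from 108 to 124 CPM in the control libraries and from 116 to 139 CPM in the cKO-labelled libraries (log2 fold change 0.14 ± 0.12, adjusted p = 0.498). Glrx5 ranged from 71.3 to 79.7 CPM in the control libraries and from 71.2 to 80.2 CPM in the cKO-labelled libraries (log2 fold change 0.012 ± 0.12, adjusted p = 0.965), one of the smallest differences of the 41 genes.

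NADPH for both systems comes in part from glucose-6-phosphate dehydrogenase and 6-phosphogluconate dehydrogenase. The first is encoded by G6pdx, which had 72.9, 95.6 and 114 CPM in the control libraries and 93.8, 90.7 and 70.3 CPM in the cKO-labelled libraries. The groups overlapped and the log2 fold change was -0.15 ± 0.18 (adjusted p = 0.637). G6pdx shares 19712 nt with Ikbkg on the opposite strand. Pgd, the later enzyme, ranged from 33.5 to 40.7 CPM in the control libraries and from 41.5 to 46.2 CPM in the cKO-labelled libraries. Its groups did not overlap, and the log2 fold change was 0.26 ± 0.14 (adjusted p = 0.279).

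Levels between genes were compared per length, in the authors' FPKM (fragments scaled to gene length and library size), as the mean of the 6 libraries. Of the 46 genes, 10 had at least 100 FPKM, 22 had 10 to 100, 6 had 1 to 10 and 8 had under 1. Prdx1 was the highest at 314 ± 49.0 FPKM (SD over 6 libraries), and Txn1 (270 ± 22.1), Sod1 (267 ± 48.3), Prdx6 (225 ± 30.9) and Gpx4 (218 ± 25.3) followed. Gpx1 (171 ± 13.8), Prdx2 (166 ± 19.4), Gstp1 (146 ± 27.1), Txn2 (117 ± 8.94) and Prdx5 (104 ± 15.7) made up the rest of the upper 10. Over these 10 genes the libraries of neighbours in the order overlapped, except that the lowest library of Gpx4 (196 FPKM) was above the highest of Gpx1 (186 FPKM). The peroxiredoxins, thioredoxins and 2 glutathione peroxidases thus stood above the enzymes that make glutathione, since Gss was at 17.1 ± 1.53, Gclm at 13.9 ± 2.98 and Gclc at 3.36 ± 1.07 FPKM. Among the stress-inducible genes, Hmox1 was at 4.46 ± 1.15 and Nqo1 at 0.205 ± 0.171 FPKM. Of the genes that fell, Mgst2 was at 64.9 ± 36.6 FPKM, Gstt2 at 20.2 ± 5.94 and Gstm7 at 1.53 ± 1.72, where the SD includes the difference between the groups.

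**Figure D3:**
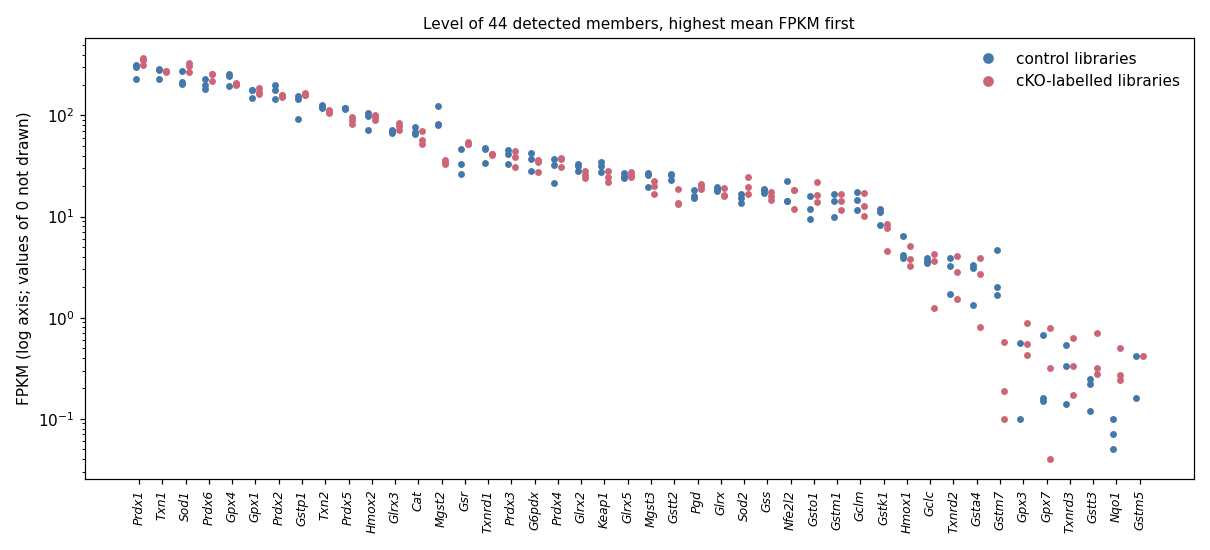
Level of the 44 genes with a count in the authors' FPKM on a log scale, in each control library (blue) and each cKO-labelled library (red), ordered by the mean of the 6 libraries; values of 0 are not drawn. Prdx1, Txn1 and Sod1 stand at the top, and Srxn1 and Sod3, at 0 in every library, are left out.

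Genes around these pathways that are not among the 46 were counted in the same way. Of 133 such genes, 132 had 1 row and 104 passed the filter, of which 5 rose (4.81%) and 7 fell (6.73%), beside 4.47% and 5.89% of all tested genes. The median log2 fold change of the 104 was -0.015. Without cKO-labelled library 3, of the 12 calls 11 were lost (adjusted p from 0.0570 to 0.184) and Txnip alone remained.

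Txnip encodes the protein that binds thioredoxin and inhibits it. It had 235, 349 and 307 CPM in the control libraries and 142, 148 and 145 CPM in the cKO-labelled libraries, with every control library above every cKO-labelled library by more than 1.5-fold. This gave a log2 fold change of -1.04 ± 0.15 (adjusted p = 0.00495), and it passed without each library in turn. Selenow, a small selenoprotein with a redox motif, fell, with 171, 182 and 179 CPM in the control libraries and 114, 120.4 and 88.4 CPM in the cKO-labelled libraries (log2 fold change -0.72 ± 0.13, adjusted p = 0.0113), and lost the call without cKO-labelled library 3 (adjusted p = 0.0627). Txnl1, a thioredoxin-like protein tied to the proteasome, rose (log2 fold change 0.43 ± 0.11, adjusted p = 0.0384), but not without control library 2 (adjusted p = 0.142) or 3 (0.0885), nor without cKO-labelled library 1 (0.0973), 2 (0.0784) or 3 (0.164).

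Idh2, the mitochondrial isocitrate dehydrogenase that makes NADPH, fell, with 251, 269 and 273 CPM in the control libraries and 177, 169 and 165 CPM in the cKO-labelled libraries and a log2 fold change of -0.63 ± 0.10 (adjusted p = 0.00825), and missed the threshold without cKO-labelled library 3 (adjusted p = 0.0570). H6pd, the hexose-6-phosphate dehydrogenase of the endoplasmic reticulum, also fell (log2 fold change -0.52 ± 0.14, adjusted p = 0.0447). The folate enzymes Mthfd1 (log2 fold change 0.73 ± 0.17, adjusted p = 0.0268) and Mthfd2 (log2 fold change 0.63 ± 0.17, adjusted p = 0.0394) rose. The H6pd call held without control library 1 and was lost without any other single library (adjusted p up to 0.143), with total counts as the only scaling (0.0515) and without the filter on low counts (0.0514). That of Mthfd2 also held without control library 1 and was lost without any other (up to 0.125), and that of Mthfd1 was lost without control library 2 and without cKO-labelled library 1 or 3 (up to 0.128). Nnt, the transhydrogenase of the inner mitochondrial membrane, had 2 rows for 2 gene models that overlap on chromosome 13, with log2 fold changes of -1.01 and 0.58. Reads may have been split between these models, and no value is given for the gene as a whole.

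Slc7a11, the cystine carrier that feeds glutathione synthesis and a target of NRF2, had 220.3, 149 and 147 CPM in the control libraries and 131, 129 and 166 CPM in the cKO-labelled libraries. Control library 1 was above the rest and the groups overlapped (log2 fold change -0.27 ± 0.18, adjusted p = 0.345). Lap3, a leucine aminopeptidase that can act in glutathione turnover, rose, with 9.18, 14.3 and 17.3 CPM in the control libraries and 31.0, 25.8 and 31.3 CPM in the cKO-labelled libraries (log2 fold change 1.11 ± 0.24, adjusted p = 0.0188). Of the genes around NRF2, Btrc, part of a ubiquitin ligase that can also mark NRF2, fell (log2 fold change -0.77 ± 0.15, adjusted p = 0.0129). Bach2, a repressor of the BACH family that binds similar elements, had 4.77, 5.14 and 2.83 CPM in the control libraries and 1.73, 1.82 and 0.646 CPM in the cKO-labelled libraries, without overlap, and did not pass (log2 fold change -1.60 ± 0.53, adjusted p = 0.0823). It passed with DESeq2 (adjusted p = 0.0316). The calls of Lap3 and Btrc were each lost without control library 2 and without cKO-labelled library 1 or 3 (adjusted p up to 0.0900 and 0.0758).

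Slc40a1, the iron exporter ferroportin, rose from very few reads, with 0.726, 0.206 and 0 CPM in the control libraries and 3.47, 4.06 and 6.88 CPM in the cKO-labelled libraries (log2 fold change 3.98 ± 0.93, adjusted p = 0.0265). Cybb, the catalytic subunit of the superoxide-making NADPH oxidase in phagocytes and named after its values were seen, had 1.09, 0.617 and 0 CPM in the control libraries and 2.24, 7.24 and 5.35 CPM in the cKO-labelled libraries and did not pass (log2 fold change 3.14 ± 0.95, adjusted p = 0.0614). Slc40a1 and Cybb are well expressed in macrophages. The macrophage markers moved in the same direction, from a summed 19.2 to 47.9 CPM to 62.4 to 80.4 CPM with C1qb, C1qc, Adgre1 and Cd68 past the threshold, and the part of such cells in these values was not tested. Rac2, a small GTPase of the oxidase that lymphocytes also express, fell, with 664, 882 and 824 CPM in the control libraries and 530.3, 535 and 522 CPM in the cKO-labelled libraries (log2 fold change -0.58 ± 0.12, adjusted p = 0.0183), and lost the call without any 1 library other than control library 1 (adjusted p up to 0.0947). Eefsec, the elongation factor for selenocysteine, fell (log2 fold change -0.44 ± 0.12, adjusted p = 0.0449) and lost the call without any 1 library other than control library 1 (adjusted p up to 0.184) and with total counts as the only scaling (0.0514). The call of Slc40a1 was lost without control library 2 or any 1 of the cKO-labelled libraries (adjusted p up to 0.129).

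**Figure D4:**
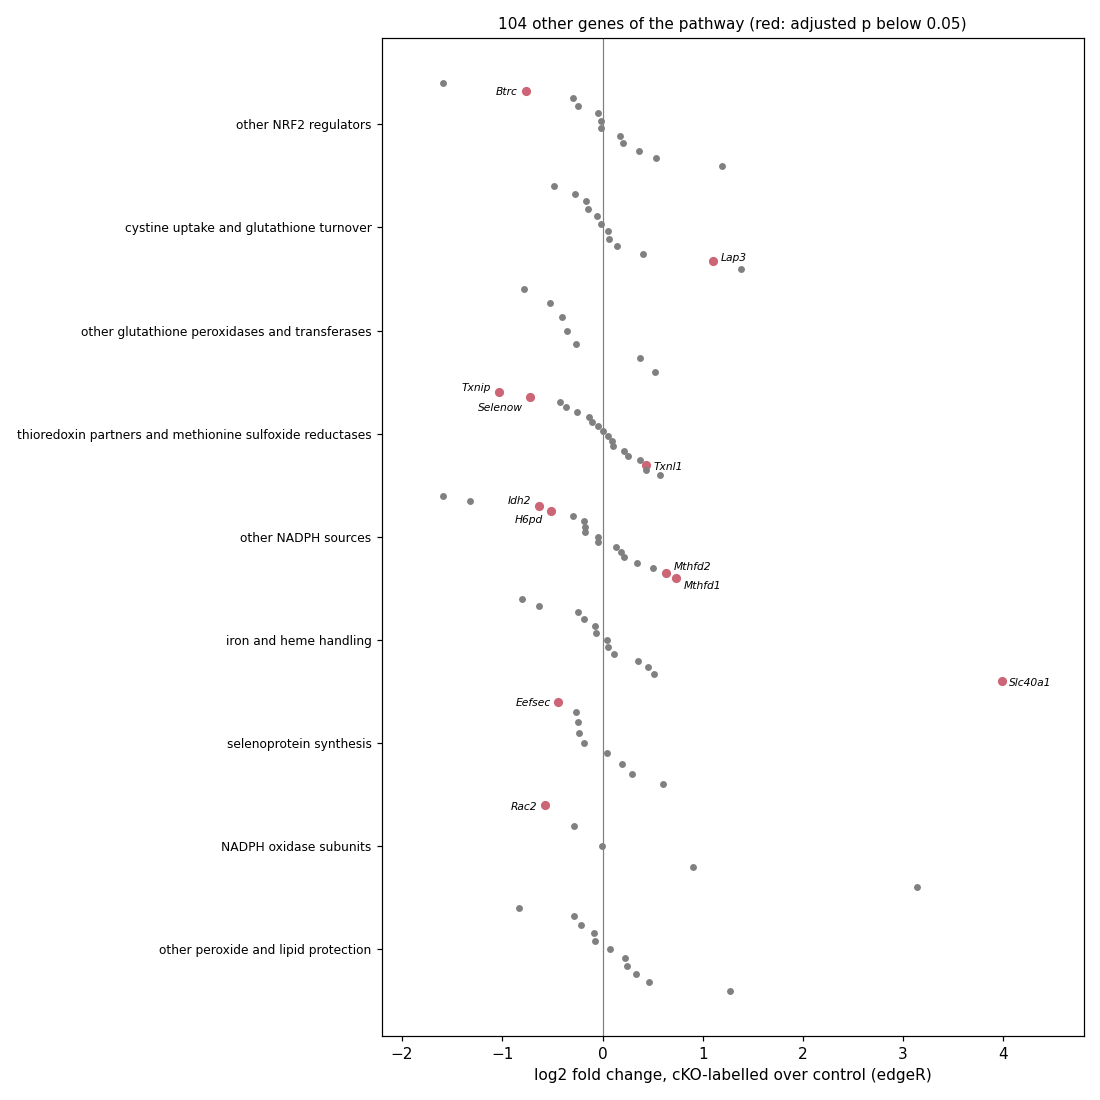
The log2 fold change of each of the 104 other tested pathway genes, cKO-labelled over control, from edgeR, in 9 groups by function; genes in red had an adjusted p below 0.05 and are named. The named genes are 7 on the left, led by Txnip, and 5 on the right, with Slc40a1 farthest from 0.

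Among 12 other NRF2 regulators 1 fell, among 12 genes of cystine uptake and glutathione turnover 1 rose, and among 7 other glutathione peroxidases and transferases none passed. Among 18 thioredoxin partners and methionine sulfoxide reductases 1 rose and 2 fell, and among 17 other NADPH sources 2 rose and 2 fell. Of 13 genes of iron and heme handling 1 rose, of 9 genes of selenoprotein synthesis 1 fell, of 5 NADPH oxidase subunits 1 fell, and of 11 genes of other peroxide and lipid protection none passed. Over all tested genes 4.47% rose and 5.89% fell, and lists this small do not tell such counts from those shares. The 21 other glutathione peroxidases and transferases were low, with a summed level of 21.2 to 41.9 CPM in the control libraries and 27.4 to 29.6 CPM in the cKO-labelled libraries. The 11 transferases among the 46 genes summed to 214 to 311 CPM and 233 to 254 CPM.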

How the data were processed

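Total RNA from sorted DP thymocytes was sequenced on an Illumina HiSeq2500 after cDNA pre-amplification, in 3 control and 3 cKO libraries grouped by their labels. Library kits differ between the study's methods (Discover-sc WTA and TruePrep) and the labels (SMARTER). The authors deposited 1 table with read counts per gene, without normalization, and FPKM scaled to gene length and library size. Its mean FPKM, log2 ratio, p-value and FDR columns, which the authors made for their own comparison, were not used. The submitters' processing notes list fastp 0.18.0, Bowtie2 2.2.8, HISAT2, StringTie and RSEM without their roles. Not given in the sources used here are the genome build, the annotation and any use of strand, so overlapping genes are uncertain. Positions are from GENCODE release M21 (GRCm38), matched by gene identifier.

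The test was edgeR's quasi-likelihood test (version 4.0.16 in R 4.3.3) with TMM scaling, after filterByExpr (minimum count 10, minimum total 15), and p-values were adjusted by Benjamini-Hochberg over all 11488 tested genes. The standard error is the log2 fold change divided by the square root of the F statistic. Library depths of 18963775 to 26252248 counts limit precision for genes below about 1 CPM. The common coefficient of variation was 0.228. Replicates were compared for duplicates and none were found (chi-square over degrees of freedom of 19.1 to 64.9 within groups). The alternatives were RLE factors, total counts, no filter, a filter at a mean of 5 CPM, DESeq2 1.42.0, voom of limma 3.58.1, the replicate number as a term, a log2 fold threshold of 1, and leaving out each library in turn. The same alternatives for genes outside the 46 were added after seeing the data. The scripts were tested on simulated data. The 46 genes, the lists of other pathway genes and the marker lists of 8 cell types were chosen with earlier results of these data known.

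Values in every library are given for genes past the threshold and for Nfe2l2, Keap1, Gclc, Gclm, Gsr, Gpx1, Gpx4, Prdx1, Txn1, Txnrd1, Sod1, Sod2, Cat, Hmox1, Nqo1 and G6pdx, whatever their result. Of other pathway genes, those past the threshold were named, at most 4 a list, with Slc7a11, Txnip and Bach2 whatever their result. Of the other pathway genes first listed, 1 is not reported here and stands in no count of them. Any further gene given per library was chosen after its values were seen.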

Additional observations from a re-analysis of the deposited data

How the results depend on the processing

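No result turned its direction under another scaling, filter or tool, and of 281 such values of the 41 genes, 276 kept both direction and side of the threshold, 2 lost it (Gstm7 and Gstt2) and 3 gained it. The number of members called higher was 0, and 1 with DESeq2 (Gsr). The number called lower was 3 (2 with total counts, the 5 CPM filter or the fold threshold, 3 with voom, 4 with DESeq2). Leaving out 1 library gave 0 to 1 called higher (Gsr without control 3) and 1 to 6 called lower, namely Mgst2 alone without control 2, control 3, cKO 2 or cKO 3, and 6 without control 1. The members' median ranged from -0.19 to 0.015. The whole table gave 514 higher and 677 lower genes, 953 and 987 with DESeq2, 42 and 78 without cKO 3, and 1000 and 1030 without control 1. Leaving out 1 library turned the sign of 15 genes that had not passed, with ranges of the log2 fold change as follows: Nfe2l2 (-0.21 to 0.15), Gclc (-0.62 to 0.070), Gpx1 (-0.081 to 0.085), Prdx3 (-0.21 to 0.044), Prdx4 (-0.0084 to 0.38), Txn1 (-0.10 to 0.092), Txnrd1 (-0.20 to 0.017), Txnrd2 (-0.10 to 0.53), Txnrd3 (-0.47 to 0.59), Hmox1 (-0.48 to 0.0038), Hmox2 (-0.19 to 0.067), Glrx5 (-0.038 to 0.063), Gstm1 (-0.16 to 0.19), Gsta4 (-0.59 to 0.31), G6pdx (-0.31 to 0.0093). The cause of these changes was not tested. Among the other pathway genes, 5 rose and 7 fell, 11 and 8 with DESeq2, 5 and 5 with total counts, 7 and 6 without the filter, and 0 to 10 and 1 to 10 with 1 library left out. Same-numbered libraries of the groups did not deviate together (r of 0.045, 0.038 and -0.030 over genes). Correlations over all genes cannot exclude a pairing that acts on few of them, so whether the numbers pair the libraries is not known. With the replicate block, 0 members were called higher and 3 lower, and 6 and 5 of the other pathway genes, where Txnl1 (adjusted p = 0.0501), Mthfd2 (0.0539), H6pd (0.0612) and Eefsec (0.0548) missed the threshold. Depth limits genes such as Gpx3, Txnrd3 and Gstt3, whose intervals exceed a 2-fold change.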
